A study of Oryza sativa Indica Group with 6 samples.

Results

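The genes described here make the iron chelator nicotianamine and its product deoxymugineic acid, or carry iron and related metals into the rice plant. The group was named as 10 genes: the nicotianamine synthase genes *NAS1*, *NAS2* and *NAS3*, the nicotianamine aminotransferase gene *NAAT1*, the iron transporter genes *IRT1*, *IRT2*, *YSL15* and *YSL2*, the regulator gene *IRO2* and the manganese and iron transporter gene *NRAMP5*. Names were matched to the symbols and synonyms of the array annotation, and 9 of the 10 genes had a probe set, among 17905 genes with a probe set of their own. They were chosen by name, with earlier genotype and replicate values of these same arrays in view, so the values below describe the group and are no independent support for any pattern in it. No member had more than 1 probe set, so no measured signal decided which probe set stood for a gene. *YSL2*, which encodes a transporter of iron and manganese bound to nicotianamine and lies beside *YSL15* on chromosome 2, was paired with no probe set and is not analysed here.

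RNA came from seedlings of *Oryza sativa* ssp. *indica*, with 3 biological replicates of the wild type (cultivar 3037) and 3 of the mutant *sd37*, each on 1 Affymetrix Rice Genome Array. The plants were 2 weeks old and had been grown on MS pots with 16 h of light at 26°C and 8 h of darkness at 18°C. The *sd37* line is a spontaneous semi-dwarf mutant found in cultivar 3037, in which a recessive point mutation exchanges an amino acid of the cytochrome P450 CYP96B4, so both genotypes share the cultivar background and the mutant stands for 1 allele. The question was whether these iron genes differed between the genotypes, and whether the difference was the same in each replicate number. The sources do not say how many seedlings made up a replicate, and 1 note of the study speaks of apices where the labels say seedlings.

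Grasses release deoxymugineic acid from the root, where it binds ferric iron, and take the complex back up. NAS enzymes join S-adenosylmethionine into nicotianamine, NAAT transfers its amino group, a reductase completes deoxymugineic acid, and YSL15 imports the ferric complex. Rice also takes up ferrous iron directly through IRT1 and IRT2, which suits flooded soil, and NRAMP5 is its main route for manganese and cadmium. Nicotianamine itself stays inside the plant and keeps metals soluble in phloem and leaves. In rice, iron shortage is known to raise transcripts of *NAS1*, *NAS2*, *NAAT1*, *IRT1*, *YSL15* and *IRO2*.

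The record matched by the name *IRO2* needs care. It is LOC4332972 on chromosome 3, and its synonyms hold OsIRO2 together with IRO3 and bHLH063. IRO2 and IRO3 are different basic helix-loop-helix proteins with opposite roles, IRO2 as an activator and IRO3 as a repressor of iron shortage genes, and bHLH063 is the family name in use for IRO3. The values are therefore given for the IRO2/IRO3 record, and whether its probe set measured *IRO2* was not settled.

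Signals are given as deposited, on a linear scale, and differences as log2 of *sd37* over the wild type, with values under 1 set to 1. Medians per array were 32.3 to 56.2. A signal of 100 was reached in all 6 arrays by 3 of the 9 genes, *NAS3*, *NAAT1* and the IRO2/IRO3 record. *IRT1* did so in 5 arrays and *NAS1* in 1, and *NAS2*, *IRT2*, *YSL15* and *NRAMP5* stayed under 100 in every array. Precision depends on this: the median standard error of a log2 difference was 0.29 among the probe sets with the highest signals and 1.04 among those with the lowest, when all were divided by mean signal into 4 equal parts. The replicate 1 arrays of both genotypes differed from the other 4: *MADS14*, which takes part in the floral transition, had 5.0 and 9.6 there and 10487 to 15081 elsewhere. Of 16 measured leaf markers, 15 had a mean signal of 100 or more, among them *RCA* (Rubisco activase) at 40314 or more in every array. Not all were strong in every array, since *PORA* had 2.3 to 120 outside replicate 1. The root silicon transporter gene *LSI1* had 1726 to 4063. Of 15 measured root markers, however, only 6 had a mean signal of 100 or more and 9 did not, among them *LSI2* (1.4 to 8.2), *WOX11* (0.9 to 25.3), *PHT1-6* (0.9 to 30.4) and *QHB* (17.3 to 44.1). In such tissue, fewer cells of a type cannot be told apart from less RNA per cell.

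None of the 9 genes passed the test between the genotypes, for which limma's moderated test was used and the p-value adjusted over 57258 probe sets (each had an adjusted p = 1). No probe set of the array passed either (0% called). At an unadjusted p under 0.05 with a change of at least 1.5-fold, 561 probe sets were lower in *sd37* (0.98%) and 688 higher (1.2%), 2.18% in all, and the only member among them was *NAS2*, on the lower side. *NAS2* no longer met that threshold without wild-type replicate 2 or 3, or without *sd37* replicate 2 or 3, which left 0 members. With the replicate number as a block, 6 probe sets passed the adjusted threshold (0.0105%) and no member did, and *NAS2* alone met the unadjusted one, among 1.99% of probe sets on the lower side. Of the 9 genes, 5 had a difference above 0 and 4 below, with a median of 0.01, beside 0.02 over all probe sets. A difference of at least 1.5-fold, tested or not, was seen on the lower side for *NAS1* and *NAS2* (16.9% of all probe sets) and on the higher side for 0 members (19.7%).

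**Figure D1:**
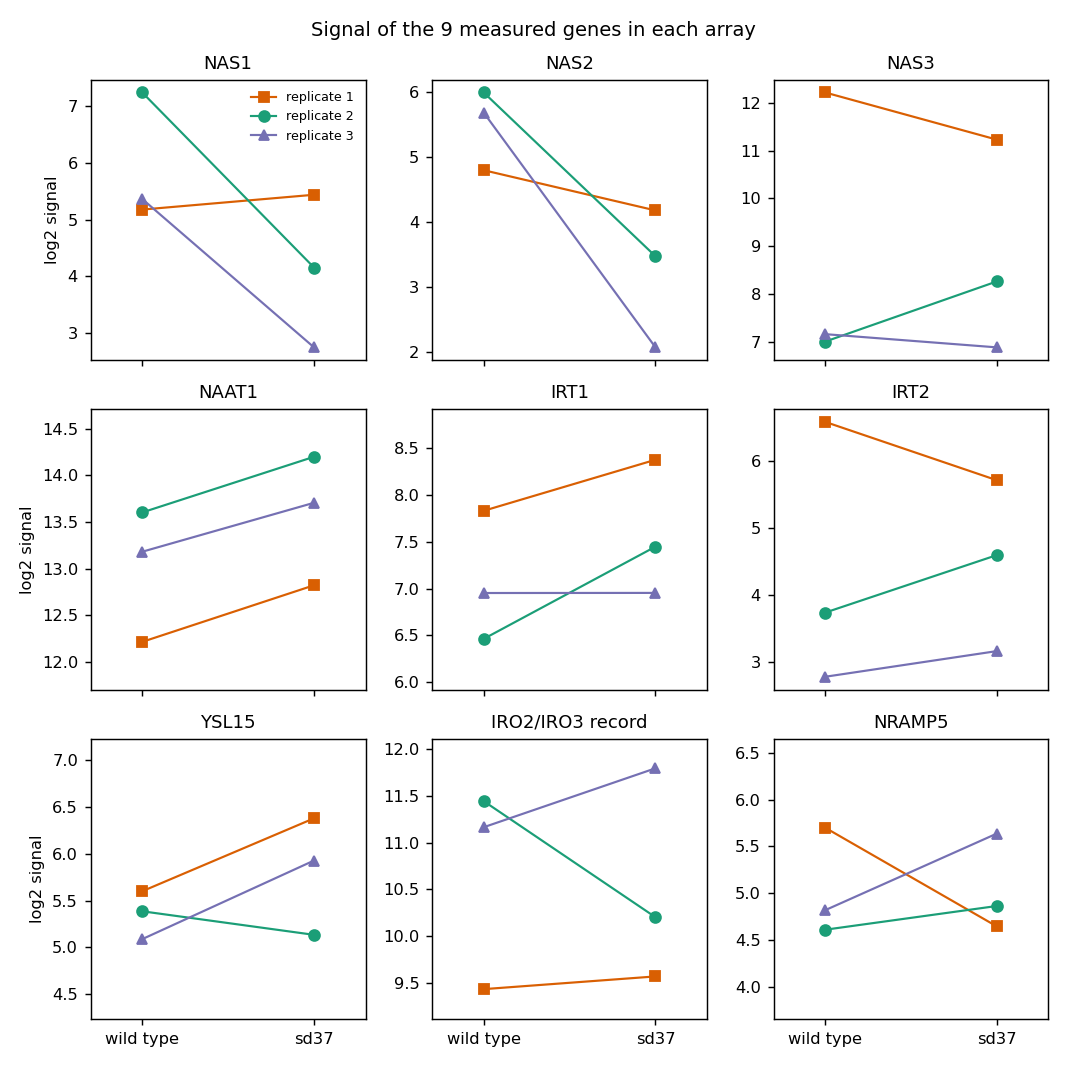
Log2 signal of each of the 9 measured genes, with wild type and *sd37* on the x axis, 1 point per array and a line joining arrays of the same replicate number; each panel has its own y axis. The 3 lines of *NAAT1* run upward side by side, those of *NAS2* all run downward, and replicate 1 lies far above the rest for *NAS3*.

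The largest genotype differences of the group were those of *NAS1* and *NAS2*. *NAS1* and *NAS2* encode closely similar synthases of the root and lie next to each other on chromosome 3, with no protein-coding gene between them. *NAS2* (LOC4332607) had signals of 27.8, 63.7 and 51.4 in wild-type replicates 1, 2 and 3 and 18.1, 11.1 and 4.2 in *sd37*. The highest *sd37* signal was under the lowest wild-type signal, a separation that 2.87% of all probe sets showed in this direction. Geometric means were 45.0 for the wild type and 9.45 for the mutant, which is a log2 difference of -2.25 (standard error 0.87, 95% interval -4.26 to -0.25, adjusted p = 1 in limma), or 4.76-fold lower. With 1 array left out it ran from -2.72 to -1.67. The two-sided exact permutation test gave p = 0.1, the smallest that 3 arrays against 3 allow. *NAS2* was the 1 member of 9 whose genotypes did not overlap, beside 6.07% of all probe sets in either direction.

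*NAS1* (LOC4332608) had 36.2, 151.8 and 41.2 in the wild type and 43.4, 17.8 and 6.7 in *sd37*. The genotypes overlapped through replicate 1, in which *sd37* was slightly above the wild type. The log2 difference was -1.82 (standard error 0.94, 95% interval -3.99 to 0.36, adjusted p = 1 in limma, exact permutation p = 0.3). It was -1.16 without wild-type replicate 2, -1.13 without *sd37* replicate 3 and -2.48 without *sd37* replicate 1. By replicate number, from 1 to 3, it was 0.26, -3.09 and -2.62, and that of *NAS2* was -0.62, -2.52 and -3.61. In replicates 2 and 3, then, *NAS1* was 8.53-fold and 6.15-fold and *NAS2* 5.74-fold and 12.2-fold lower in the mutant, from wild-type signals of 41.2 to 151.8. Both sets of *sd37* signals in these replicates (4.2 to 17.8) lay under the median of their arrays and the files give no detection calls, so the size of the folds is not known well. The replicate 1 signals of both genes also lay under the medians of their arrays, 51 for the wild type and 56.2 for *sd37*. When values under 16 were set to 16, the log2 difference of *NAS2* was -1.43. The difference between replicate 1 and the other replicates did not pass limma's interaction test for either gene (adjusted p = 0.664 for *NAS1* and 0.719 for *NAS2*), nor for any other member (0% of all probe sets called). No member had an unadjusted p under 0.05 in that test at any size of effect. Of all probe sets, 7.71% had such a p together with an effect of at least 1.5-fold.

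Of the 15 measured root markers, 13 had a log2 difference below 0, with a median of -0.43, and 0 passed the adjusted test. Of all 57258 probe sets, 27168 were below 0, and the median was 0.02. By replicate number 7, 13 and 11 of the 15 were below 0. With the replicate block *NRT2.3* and *PIP2-5* met the unadjusted threshold on the lower side, as did 1.99% of all probe sets. The median of the 15 markers was 0.00 in replicate 1, -0.83 in replicate 2 and -0.53 in replicate 3. Over all probe sets it was 0.04, -0.004 and 0.02. Added up, the root marker signals came to 4464, 7350 and 7331 for the wild type and to 4645, 4675 and 5902 for *sd37*. A large part of each sum was *LSI1*, with 1726, 4063 and 3630 in the wild type and 1780, 2326 and 3472 in *sd37*. *PIP2-5*, a root aquaporin gene, had 971, 522 and 784 in the wild type and 1031, 184 and 224 in *sd37*, and *NRT2.3*, a nitrate transporter gene, had 160, 277 and 311 against 123, 156 and 137. The other root markers with a mean signal of 100 or more varied. *HAK1*, a potassium transporter gene, had 867, 851 and 768 in the wild type and 992, 837 and 777 in *sd37*. By replicate number, *AMT1-2*, an ammonium transporter gene, had differences of 0.33, -0.21 and -0.38, with a mean of -0.09 (standard error 0.64). *SCR1* had 0.07, -0.83 and -0.66, and *LSI1* had 0.04, -0.80 and -0.06. In replicate 3 *LSI2*, *CSLD1*, *CASP1* and *HAK1* were above 0, *HAK1* by 0.02. The replicate 3 signals of *LSI2* (1.4 and 8.2), *CSLD1* (22.4 and 31.6) and *CASP1* (14.4 and 16.8) lay under the medians of their arrays, 32.3 and 34.1. The part of root RNA content in the differences of *NAS1* and *NAS2* was not tested.

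*NAS3*, the remaining synthase gene, whose transcript in rice is known to answer to iron shortage differently from those of *NAS1* and *NAS2*, showed another pattern. The gene is LOC4344361 on chromosome 7, and its signals were 4752, 128.6 and 143.3 in the wild type and 2399, 307.7 and 118.3 in *sd37*. Both replicate 1 arrays were far above the other 4, by 21.0-fold on average, and the genotypes overlapped. The genotype difference was -0.99, 1.26 and -0.28 by replicate number, and the overall value was 0.00 (standard error 1.53, 95% interval -3.54 to 3.53). With the replicate block the interval narrowed to -0.83 to 0.83, which still holds differences of more than 1.5-fold in both directions.

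*NAAT1* encodes the aminotransferase that commits nicotianamine to deoxymugineic acid. The gene (LOC9267778, chromosome 2) had signals of 4763, 12438 and 9293 in the wild type and 7247, 18792 and 13361 in *sd37*, and every *sd37* array was above the wild-type array of the same number. The ratio was 1.52 in replicate 1, 1.51 in replicate 2 and 1.44 in replicate 3. Among the 9 genes these differences were the most alike: on the log2 scale they were 0.61, 0.60 and 0.52. Because replicate 1 was low in both genotypes, the groups overlapped, and the fit without the block gave a log2 difference of 0.58 (standard error 0.45, 95% interval -0.45 to 1.60, adjusted p = 1, exact permutation p = 0.4), which ran from 0.18 to 0.95 with 1 array left out. With the replicate block the standard error was 0.09, the 95% interval 0.37 to 0.78 and the adjusted p = 0.202 in limma. In that fit *NAAT1* ranked 48 of 57258 by p-value, within the first 0.0838%, yet it did not pass. The block takes the replicate numbers as pairs, which the arrays do not show for replicates 2 and 3. With a term for replicate 1 in its place the standard error was 0.15 and the adjusted p = 0.579 in limma. That setting was chosen after seeing the data. A two-sided exact permutation test that only exchanges arrays within a replicate number gave p = 0.25, the smallest that 3 pairs allow. The same sign in all 3 replicate numbers was shared by 3 of the 9 members, with *NAAT1* and *IRT1* (the latter by 0.001 in replicate 3, a sign that turns with the scaling) higher (14.1% of all probe sets) and *NAS2* lower (12.2%), 26.3% in all. For *NAAT1* the 3 differences stayed above 0 under quantile normalization (0.57, 0.65 and 0.51) and with all arrays scaled to one median (0.47, 0.57 and 0.45).

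**Figure D2:**
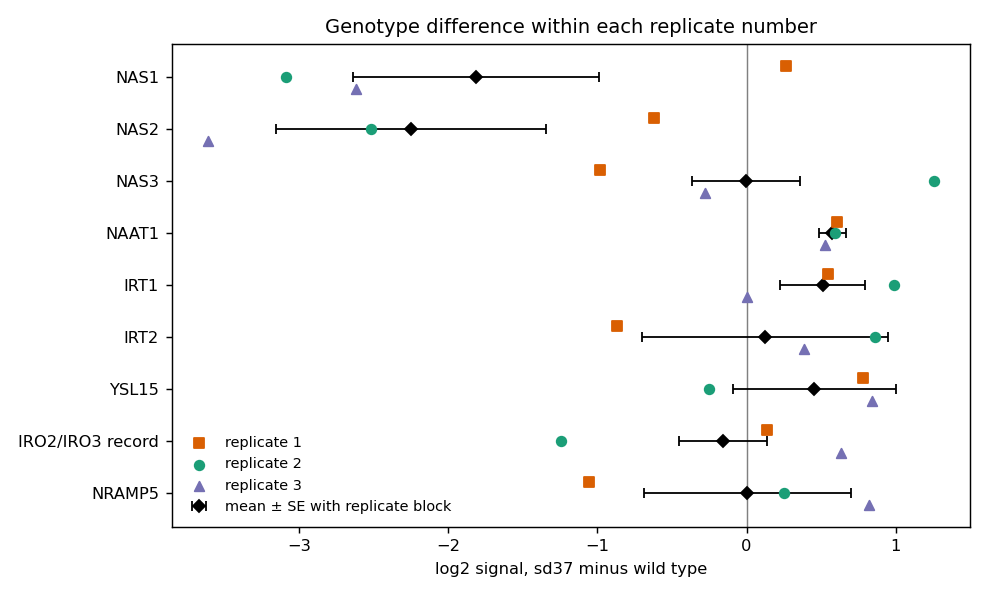
Log2 signal of *sd37* minus wild type for each gene, with 1 coloured symbol per replicate number; black diamonds are the means over the 3 replicates and bars the standard errors of the fit with the replicate block. The symbols of *NAAT1* lie between 0.52 and 0.61, while those of *NAS1* reach from -3.09 to 0.26.

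Among the transporter genes no difference passed the test, and the signs varied. *IRT1*, the main ferrous iron importer of the group (LOC4333669), had 227.8, 88.1 and 123.8 in the wild type and 332.6, 174.6 and 123.9 in *sd37*. The mutant was 1.46-fold higher in replicate 1 and 1.98-fold in replicate 2, and in replicate 3 the signals, 123.8 and 123.9, were almost equal. Overall the log2 difference of *IRT1* was 0.51 (standard error 0.52, 95% interval -0.68 to 1.70). In replicate 3 the sign turned below 0 under quantile normalization (-0.01) and with arrays scaled to one median (-0.08).

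*IRT2* (LOC4333667), another ferrous importer gene that lies close to *IRT1* on chromosome 3 with 1 protein-coding gene between them, had 96.4, 13.4 and 6.9 in the wild type and 52.7, 24.3 and 9.0 in *sd37*. It was lower in the mutant in replicate 1 and higher in replicates 2 and 3, and 5 of the 6 signals lay under the median of their arrays. *YSL15* (LOC9268232), the importer of ferric deoxymugineic acid, had 48.5, 41.8 and 34.0 in the wild type and 83.3, 35.1 and 60.9 in *sd37*. The genotypes overlapped by the *sd37* array of replicate 2, and the log2 difference was 0.46 (standard error 0.59, 95% interval -0.90 to 1.81).

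*NRAMP5* (LOC4342859, chromosome 7) had 52.0, 24.4 and 28.2 in the wild type and 25.0, 29.1 and 49.8 in *sd37*, with 4 signals under the median of their arrays. The replicates opposed each other, since the differences were -1.06, 0.25 and 0.82, and the overall value was 0.01 (standard error 0.68). Its 95% interval ran from -1.57 to 1.58.

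The IRO2/IRO3 record had 691.4, 2788 and 2298 in the wild type and 759.8, 1179 and 3557 in *sd37*. The widest gap between arrays of the same number, -1.24 in replicate 2, was set by a low *sd37* array, and replicate 3 gave 0.63 in the other direction. The log2 difference was -0.16 (standard error 0.68, 95% interval -1.72 to 1.40). In replicate 1 the difference was 0.14, and -0.004 with all arrays scaled to one median. All 6 signals of this record lay far above the median of their arrays.

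Replicate 1 was the other axis along which these genes differed. In 5 of the 9 genes both replicate 1 arrays lay beyond all 4 others by at least 1.5-fold on average, 3 of them above (24.2% of all probe sets) and 2 below (12.8%), which 36.9% of all probe sets did in either direction. The split was taken from the data of these arrays, so the members' replicate 1 differences are described and not tested. The interaction test given above rests on the same split. *NAS3* was higher in replicate 1 by 4.39 on the log2 scale, a size that only 0.543% of all probe sets reached, *IRT2* by 2.58 and *IRT1* by 1.15. *NAAT1* and the IRO2/IRO3 record were lower there, by 2.22-fold and 3.14-fold. The median over all probe sets was 0.39, which quantile normalization brought to -0.01 and scaling to one median to -0.28, and the 5 genes kept their directions under both, though *IRT1* came to 0.48 with scaling to one median, which is under 1.5-fold. For *NAS1*, *NAS2* and *NRAMP5* the sign turned under both, and for *YSL15* with scaling to one median alone, so no direction is given for these 4 genes.

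**Figure D3:**
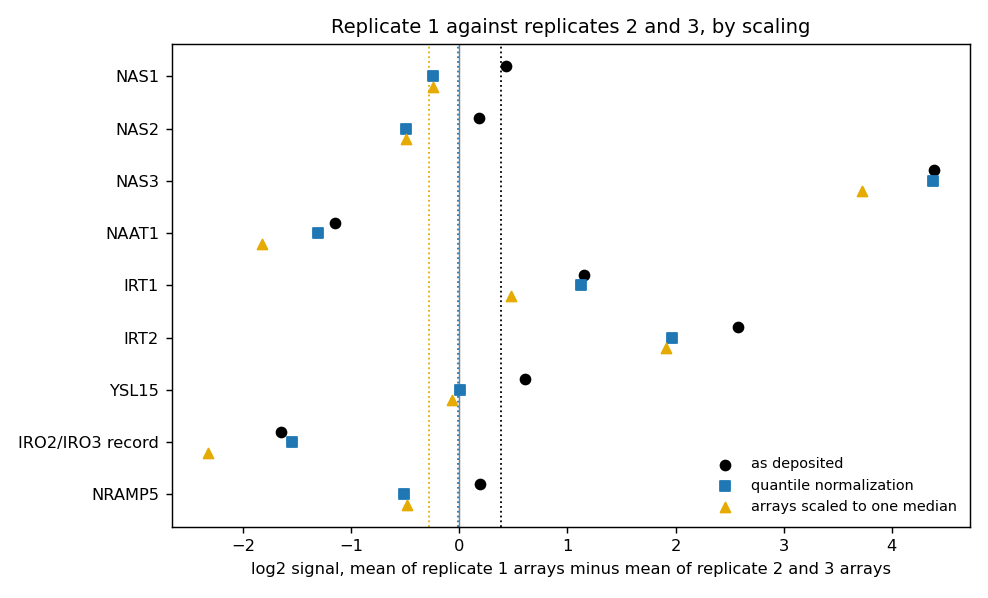
Mean log2 signal of the 2 replicate 1 arrays minus that of the 4 arrays of replicates 2 and 3, for each gene, as deposited (circles), after quantile normalization (squares) and with all arrays scaled to one median (triangles); dotted lines mark the median of all probe sets under each scaling. *NAS3* lies between 3.72 and 4.39 under all 3, and *NAAT1* between -1.82 and -1.15.

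The leaf and apex markers differed between the replicates as well. Over 16 measured leaf markers the signals added up to 432743 and 483768 in the replicate 1 arrays and to 175829 to 236660 in the other 4, and *PORA*, a gene of chlorophyll synthesis, had 7107 and 7160 against 2.3 to 120. That of 13 apex and inflorescence markers was 3903 and 3238 in replicate 1 and 22918 to 30816 in the others, a sum carried by *MADS14*, *MADS15* and *MADS18*. The list as a whole did not go that way: its median was 0.67 higher in replicate 1 on the log2 scale, with 5 markers apart on the higher side and 4 on the lower, and the meristem gene *OSH1* had 29.5 and 28.4 in replicate 1 and 0.9 to 14.0 in the others. The root marker sum was 4464 and 4645 in replicate 1. Between the genotypes, 13 of the 16 leaf markers were higher in *sd37* and 3 lower, with a median log2 difference of 0.20. By replicate number that median was 0.02, 0.39 and 0.28. Of the apex and inflorescence markers 7 were higher and 6 lower, with a median of 0.06. On both lists 0 passed the adjusted test, and 30087 of all 57258 probe sets were above 0. The part of tissue content in the replicate 1 values of *NAS3* and *NAAT1* was not tested.

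The rest of the iron and metal genes, 45 measured genes on 5 lists, did not pass the test between the genotypes either. Of these, 23 were higher and 22 lower in *sd37*, with a median log2 difference of 0.02, and 0 had an unadjusted p under 0.05 in limma at any fold. The lists rest on names, and 5 of the 45 records are doubtful (*TOM1*, *TOM2*, *FDH*, *IDI1* and *ARD2*, for the reasons given below). Without them 22 were higher and 18 lower, with a median of 0.05. With the replicate block 1 gene, *NRAMP4*, met the unadjusted threshold with a 1.5-fold change, beside 4.27% of all probe sets, and the smallest adjusted p among the 45 was 0.62.

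No further gene of mugineic acid synthesis was covered, since no record matched *DMAS1* or the other *NAAT* names. Of 8 measured genes listed for the methionine cycle that feeds it, 4 were higher and 4 lower, with a median of 0.00. The synonyms of the *FDH* record name a formaldehyde dehydrogenase, and those of *IDI1* and *ARD2* also name heat shock factors, so what these 3 probe sets measured was not settled. *SAMS1* and *SAMS2*, which encode S-adenosylmethionine synthetases and so supply the substrate of NAS, had differences of 0.11 (standard error 0.26) and -0.03 (standard error 0.21). *MTK1*, a methylthioribose kinase gene of methionine recycling, had 7295, 9677 and 10220 in the wild type and 7351, 5554 and 7687 in *sd37*. The replicate 1 arrays were nearly equal (0.01) and *sd37* was lower in replicates 2 and 3 (-0.80 and -0.41), with a log2 difference of -0.40 (standard error 0.23). The *IDI1* record had -0.56 (standard error 0.42) and *IDI2* had 0.34 (standard error 0.29).

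The list for export and uptake of the chelates had 16 measured genes, of which 7 were higher and 9 lower, with a median of -0.05. Of these, *TOM1* and *TOM2* were matched by symbol alone, to records on chromosomes 2 and 10 that nothing in the annotation ties to chelate export, and no value is given for them. The other 14 are *YSL* genes, 7 higher and 7 lower, with a median of -0.05. *YSL12* had 3960, 2805 and 1946 in the wild type and 4780, 3851 and 2566 in *sd37*, higher in each replicate number by 0.27, 0.46 and 0.40, without passing the test (adjusted p = 0.62 with the replicate block in limma). *YSL6* and *YSL8*, of the same family, had 0.10 (standard error 0.19) and 0.28 (standard error 0.46).

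*IDEF1*, a transcription factor of the early response to iron shortage, was the 1 gene measured among 18 named regulators. It had 831, 960 and 1168 in the wild type and 663, 1070 and 1092 in *sd37*, a difference of -0.09 (standard error 0.28). The list named for iron storage and transport inside the cell had 5 measured genes, *VIT1*, *VIT2*, *NRAMP3*, *NRAMP4* and *NRAMP6*, placed there by name. *NRAMP4* has 5 probe sets, of which the 1 with the highest mean signal was used. All 5 genes had a difference above 0, with a median of 0.21, and 0 passed. Of all 57258 probe sets, 30087 were above 0. *VIT2*, a transporter that loads iron into the vacuole, had 1561, 390 and 172 in the wild type and 589, 1144 and 586 in *sd37*. The mutant was below the wild type in replicate 1 (-1.41) and above it in the others (1.55 and 1.77), and this difference between replicates did not pass the interaction test (adjusted p = 0.575 in limma). When both replicate 1 arrays were left out, *VIT2* did pass the genotype test, with a log2 difference of 1.66 (standard error 0.17, adjusted p = 0.00725 with the replicate block in limma), as the only gene of the 5 lists, and no member passed. In that setting 298 of all probe sets passed (0.52%). The setting rests on the replicate 1 split, which was taken from these arrays, and drops the replicate in which *VIT2* had the opposite sign. With all arrays and the replicate block *VIT2* had 0.64 (standard error 0.52, adjusted p = 0.895 in limma). *NRAMP6* had 0.21 (standard error 0.31) and *NRAMP3* 0.15 (standard error 0.26).

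Among 15 measured genes for other divalent metals, 7 were higher and 8 lower, with a median of -0.12. *ZIP8*, a zinc transporter gene, had 2399, 3742 and 3551 in the wild type and 3970, 5159 and 3809 in *sd37*, and its genotypes did not overlap, as in 3.2% of all probe sets in this direction. The log2 difference was 0.43, with a standard error of 0.25 without the replicate block. With the block the standard error was 0.13 and the adjusted p = 0.719 in limma. *ZIP7* had -0.32 (standard error 0.28) and *ZIP2* had 0.31 (standard error 0.28).

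**Figure D4:**
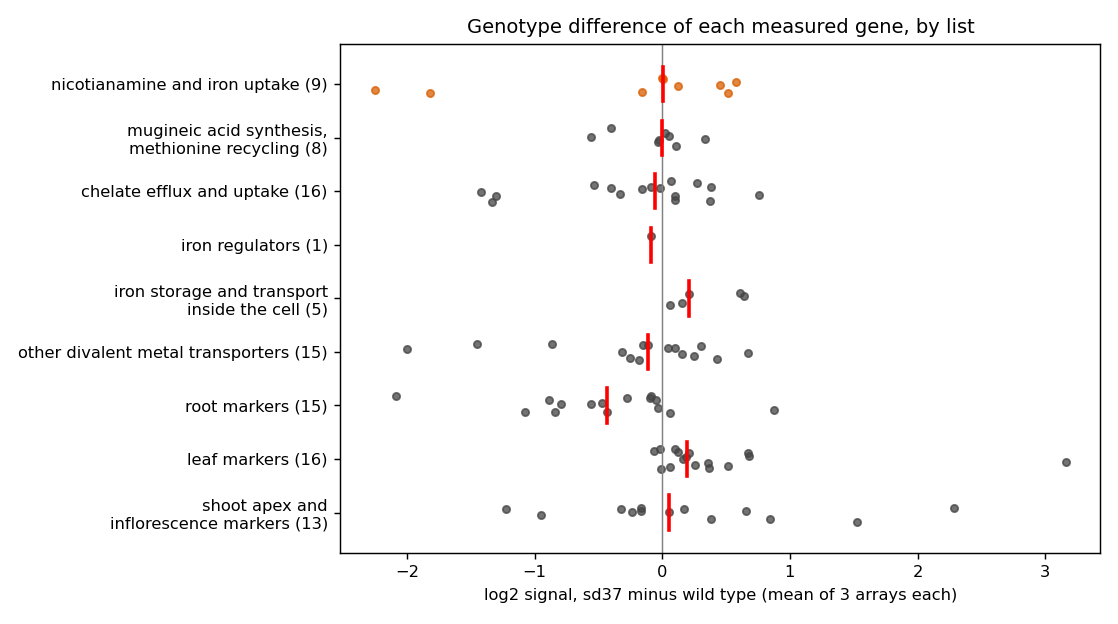
Log2 signal of *sd37* minus wild type, as the mean of 3 arrays each, for every measured gene of the group (orange), of the 5 iron and metal lists and of the 3 marker lists (grey), with red bars at the medians and the number of genes in brackets. The medians of the iron and metal lists lie between -0.12 and 0.21. Those of the root, leaf, and apex and inflorescence markers lie at -0.43, 0.20 and 0.06.

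The genes with the pattern most like that of the group were sought by the distance of their log2 profile over the 6 arrays, each centred on its own mean, from the mean profile of the 4 members with a mean signal of 100 or more. Among 1846 named genes of such signal, the smallest distances were those of *FTSH7* (0.15), LOC4327787, listed as AtNLP3 (0.16), *sodCp* (0.19), *OSR8* (0.20) and *PRXIIC* (0.21). The mean profile was 0.42 and 0.49 in the replicate 1 arrays and between -0.39 and 0.02 in the others. It averaged *NAS3* and *IRT1*, which were high in replicate 1, with *NAAT1* and the IRO2/IRO3 record, which were low.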

How the data were processed

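The deposited values are probe set intensity values on a linear scale, which the authors obtained ready normalized from a hybridization service, by an algorithm not named in any source used here. The paper and the labels differ on how RNA was extracted. The table holds 57381 probe sets, of which 123 are controls and were dropped. Values under 1 (1.77%) were raised to 1 before log2. R 4.3.3 with limma 3.58.1 (lmFit, then eBayes with trend) compared the genotypes over the 6 arrays, in place of the ANOVA that the methods name. A call needed 1.5-fold and an adjusted p (Benjamini-Hochberg) under 0.05. The p-values measure the spread between these samples. Precision is limited by how few arrays there are.

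Genes were named through the platform's annotation and the RefSeq annotation of assembly ASM3414082v1, which was used for names, chromosomes and neighbours. Of the probe sets tested, 22436 have 1 gene, 95 have several (left out) and 34727 are unnamed here. No measured member's probe set carries the suffix for shared transcripts. Of the 10 gene names 9 were measured; names of the other lists that matched no record, several records or no probe set were left out. No sequence table was used here, so no sequence is shown and promoter motifs were not searched. The members and lists were chosen with earlier results of these data known. Named are all members and, from each list, the 3 genes of smallest p with a mean signal at or above the median of all values (40.1), with the 5 genes of most alike profile. *MADS14*, *RCA*, *LSI1*, *LSI2*, *WOX11*, *SAMS1*, *SAMS2*, *HAK1*, *AMT1-2*, *SCR1*, *PHT1-6*, *QHB*, *CSLD1*, *CASP1*, *OSH1*, *MADS15*, *MADS18*, *NRAMP4* and *VIT1* were named after their values were seen. Markers named by the rule without a value in the text are *NRT2.2*, *CAB2R*, *PPDKA*, *LAX1*, *FON1* and *MADS34*, none of which passed.

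Deviations of arrays from their genotype's mean correlated, across probe sets, with 0.394, 0.134 and 0.16 for replicates 1, 2 and 3 of both genotypes. Wild-type replicate 2 with *sd37* replicate 3 gave 0.164, and wild-type replicate 3 with *sd37* replicate 2 gave 0.13. These values set replicate 1 apart and do not show that replicates 2 and 3 are paired by number. The fit with a replicate block takes the numbers as pairs and is given as well. Alternatives were another normalization, floor, filter, variance model or test, arrays left out, a term for replicate 1, and the lists without doubtful records. The last 2 were chosen after seeing the data. The interaction test and the fit without both replicate 1 arrays were planned. Both rest on the replicate 1 split, which earlier results of these arrays had shown.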

Additional observations from a re-analysis of the deposited data

How the results depend on the processing

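Across 15 alternative settings the members gave 130 log2 differences, of which 112 kept their direction and their side of the adjusted threshold and 18 turned in sign; 0 members passed that threshold in any setting. The sign turned for 4 genes, all with differences near 0, and the cause was not tested. *NAS3* had 0.001 under quantile normalization, 0.49 without both replicate 1 arrays and -1.22 to 1.71 with 1 array left out. *IRT2* had -0.089 with values under 16 set to 16 and -0.67 to 1.23 with 1 array left out. The IRO2/IRO3 record had -0.80 to 0.32 with 1 array left out. *NRAMP5* had -0.09 under quantile normalization, -0.074 with arrays scaled to one median and -0.29 to 0.34 with 1 array left out.

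Over all probe sets, the count at the adjusted threshold was 0 without a block and with any 1 array left out, 6 with the replicate block, 10 with a term for replicate 1 (a setting chosen after seeing the data) and 298 with the replicate block and without both replicate 1 arrays. At the unadjusted threshold 1249 became 2446 with the replicate block, 2566 with the term for replicate 1, 1974 without the trend, 810 with values under 16 set to 16, 189 among probe sets with a mean of 100 or more, 3113 without both replicate 1 arrays, and 917 to 2333 with 1 array left out. Members at that threshold were 1, against 0 at a mean of 100 or more and 0 to 2 with 1 array left out. Without both replicate 1 arrays they were 2 (*NAS1* and *NAS2*), beside 3113 of all 57258 probe sets. Genes of the 5 lists were 0, against 1 with the replicate block (4.27% of probe sets) and 1 with the term for replicate 1. With 1 array left out they were 0 to 2. Without both replicate 1 arrays they were 5, beside the same 3113 probe sets. At the adjusted threshold 1 (*VIT2*) passed in that setting, beside the 298 probe sets. At the unadjusted threshold the replicate block also called 2 root markers lower, 2 leaf markers higher, and 1 apex marker higher and 1 lower. These counts were 0 without it. Over all probe sets the block called 2.28% higher and 1.99% lower. At the adjusted threshold it called no member, list gene or marker. Without the doubtful records the lists again had 0 calls. The interaction with replicate 1 called 0 probe sets, against 4543 with values under 16 set to 16, and 0 members in both. Members with a mean under 100 have no value under the filter at 100, and other probe sets per gene could not be tried, since each member has 1.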
